A study of Mus musculus with 2 samples.

Results

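The genes of the major histocompatibility complex (MHC) and of the machinery that loads peptides onto MHC molecules were examined in splenic red pulp macrophages. Members were genes whose RefSeq symbol, found through the accession of the probe, starts with H2-, together with B2m, Tap1, Tap2, Tapbp, Nlrc5, Erap1, Cd74, Ciita, Ifi30, Cd1d1 and Cd1d2. Of 61 such symbols in RefSeq, 44 had a probe here, out of 20642 genes with a named probe. They comprised 2 classical class I genes, 23 nonclassical class I genes, 9 class II genes, 9 loading and regulator genes, and H2-Ke6, which lies in the complex but encodes a metabolic enzyme. The other 17 symbols, Cd1d2, H2-Ea, H2-T22 and H2-Q9 among them, matched no probe and were not analysed here.

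MHC class I molecules display peptides from the cytosol to CD8 T cells. These peptides are carried into the endoplasmic reticulum by the TAP transporter and loaded onto a heavy chain paired with β2-microglobulin. MHC class II molecules display peptides from endocytosed material to CD4 T cells; the invariant chain guards their groove, and H2-DM exchanges the last invariant chain fragment for peptide. NLRC5 is the main transactivator of class I genes and CIITA that of class II genes, and both act at a conserved promoter module of X and Y boxes.

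Red pulp macrophages are the resident phagocytes of the spleen that remove aged red blood cells. RNA came from such cells of wild-type (WT) mice and of mice without SIRPα (SIRPα-KO), an inhibitory myeloid receptor for CD47. The labels describe a sort for F4/80+ CD11b-low cells and depletion of globin transcripts in both groups, and name no treatment. Each genotype was 1 pool of 5 mice on 1 single-colour array, so no value has a replicate and no test across samples was possible; the labels used here state no strain, age or design of the deletion. As the series holds whole pools, fewer cells of a type and less RNA per cell cannot be told apart.

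The X and Y boxes are shown first, because they are the letters of the promoter module named above; a match is a description, not a site shown to be bound. RefSeq promoters (build GRCm38.p6, 250 bases before the start site to 50 after it) were matched by symbol for 33 of the 44 members. The X box was searched as CC, any 2 bases, G, any 2 bases, AC, any 2 bases and ATG, the Y box core as ATTGG, each on both strands, and these motifs do not overlap in the hits shown. The X box letters occurred in 7 of the 33 members and in 0.859% of all 27025 genes with a promoter (0.749% of their 32851 promoters). A gene without a match may still hold an X box that departs from these letters. In all 7 members a Y box core followed on the same strand, starting 34 to 37 bases after the X box. An X box followed by a Y box core at a distance of 30 to 40 bases, a window chosen after these hits were seen, occurred in 8 promoters in all, the 7 members and BC051142. In the lines below, written 5′ to 3′ on the strand of the gene, the first run of capitals is the X box and the second the Y box core.
H2-D1 (chr17:35262976-35263027, + strand): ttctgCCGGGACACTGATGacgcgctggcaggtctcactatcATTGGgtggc
H2-M3 (chr17:37270171-37270222, + strand): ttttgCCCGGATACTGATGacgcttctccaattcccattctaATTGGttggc
H2-Q4 (chr17:35379496-35379547, + strand): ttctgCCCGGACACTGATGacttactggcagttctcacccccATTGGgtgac
H2-Q6 (chr17:35424730-35424780, + strand): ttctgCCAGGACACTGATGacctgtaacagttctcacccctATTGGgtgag
H2-Q7 (chr17:35439074-35439124, + strand): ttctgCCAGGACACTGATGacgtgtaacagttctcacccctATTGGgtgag
H2-DMb1 (chr17:34153088-34153139, + strand): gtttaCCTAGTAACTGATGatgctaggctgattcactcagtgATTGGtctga
H2-Ob (chr17:34238809-34238857, + strand): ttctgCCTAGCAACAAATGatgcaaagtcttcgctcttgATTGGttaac

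The windows of H2-Q6 and H2-Q7 were identical at 50 of 51 bases. The Y box core, with or without an X box, occurred in 28 of the 33 members, against 41.1% of all genes (37.4% of promoters). Among these were the genes with the lowest values of the nonclassical group, H2-M10.3 and H2-M11, in which it lies on the opposite strand; their windows are shown beside that of H2-M10.2, another gene of the same cluster, with the Y box core, read as CCAAT, in capitals. H2-M10.3 and H2-M10.2 were identical at 46 of 55 bases, and H2-M10.3 and H2-M11 at 31 of 55.
H2-M10.3 (chr17:36368458-36368512, - strand): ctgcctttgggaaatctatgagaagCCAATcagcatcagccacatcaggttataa
H2-M10.2 (chr17:36286464-36286518, - strand): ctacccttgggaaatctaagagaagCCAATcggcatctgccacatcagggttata
H2-M11 (chr17:36546968-36547022, + strand): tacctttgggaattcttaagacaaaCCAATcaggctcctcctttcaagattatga

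The interferon-stimulated response element (ISRE), searched as GAAA, any 2 bases and GAAA on both strands, is the motif bound by interferon regulatory factors. It occurred in B2m, H2-T23 and Erap1, or 3 of 33 members, against 3.99% of all genes (3.44% of promoters). It is in capitals in the lines for B2m and for H2-T23, where it lies on the opposite strand.
B2m (chr2:122147538-122147567, + strand): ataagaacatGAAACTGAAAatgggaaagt
H2-T23 (chr17:36032806-36032835, - strand): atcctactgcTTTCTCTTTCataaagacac

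The values are the processed signal of Agilent Feature Extraction, an intensity after background subtraction. For comparison, each array was divided by its 75th percentile of signal (100.2 for WT and 89.2 for the other array), and differences are log2 of the scaled signal, SIRPα-KO minus WT. The error after ± is the signal error of the software for both arrays and covers spot measurement only. It was averaged over the spots of a probe without being reduced for their number. For bright probes it is near 0.20 throughout, so for them it acts nearly as a fixed fold cut. A gene was read from its brightest probe and counted as measured if 1 array or both put that probe well above background. Where the second array was not well above background, the difference is called a limit. It depends on the floor used and is not a lower bound on the true difference. Signals of different genes come from different probes and are not set against each other, though those of cell type markers were also summed. Of all 39386 probes, the WT array had 71.5% well above background and the other array 65.4%.

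The targeted gene did not bear out the label: Sirpa gave 795 for WT and 1006 on the array labelled SIRPα-KO, a difference of 0.51 ± 0.20. No source used here places its probe inside or outside the deleted stretch, and a probe outside it checks nothing. All directions below follow the labels alone.

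Most MHC and loading genes differed little between the arrays. Of the 44 members, 37 were measured, 34 on both arrays and 3 on the WT array only. On the array labelled SIRPα-KO 2 of these 37 (5.41%), H2-M10.3 and Tap2, were at least 2-fold lower, against 5.50% of all 15828 measured genes. None was at least 2-fold higher, against 3.10% of all genes. At a limit of 1.5-fold, 6 members were lower (16.2%, against 13.7% of all genes) and 2 were higher (5.41%, against 11.4%). The share at least 2-fold lower is thus near that of all genes. A difference beyond 2 times its signal error was found for 11 members, or 29.7%, against 32.2% of all genes. The members had a median difference of -0.10, and all measured genes one of -0.09. At the 2-fold limit the whole set split into 490 higher and 871 lower; this split was 674 and 732 after quantile normalization and 303 and 1188 without scaling.

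**Figure D1:**
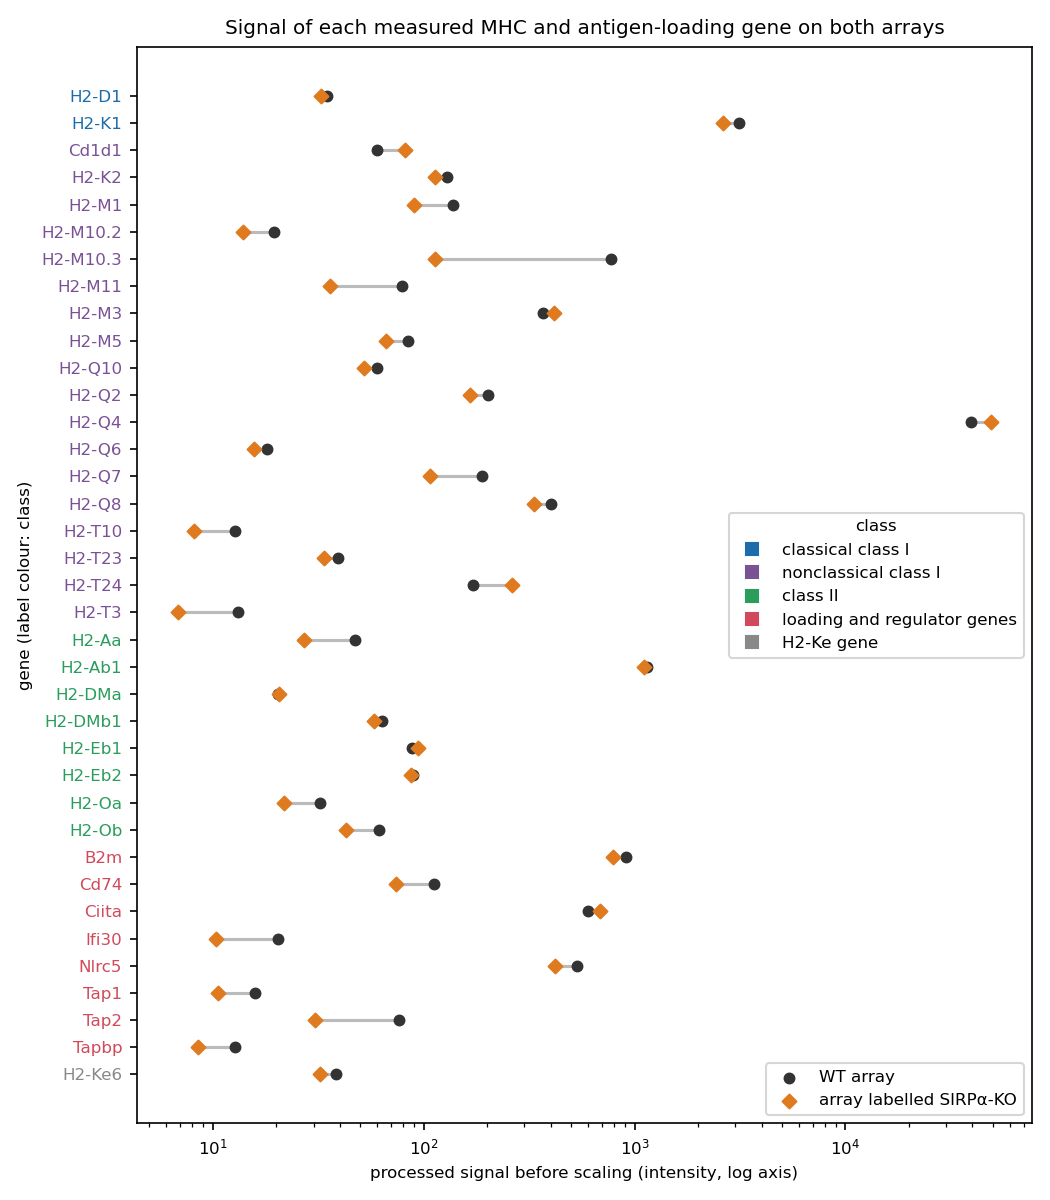
Processed signal (intensity before scaling, log axis) of each of the 37 measured genes on the WT array (circles) and the array labelled SIRPα-KO (diamonds), 1 array each, with gene labels coloured by class. The widest gap is that of H2-M10.3, from 769 to 113; levels of different genes are not comparable.

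The classical class I heavy chains, which present peptides to CD8 T cells, were nearly equal on both arrays. H2-K1 was spotted 10 times on each array. Its spots ranged from 2771 to 3459 with a median of 3146 on the WT array, and from 2341 to 2865 with a median of 2664 on the array labelled SIRPα-KO. After scaling, the spots of both arrays overlapped, and only 2 of the 10 on the array labelled SIRPα-KO lay below the lowest WT spot. The difference was -0.08 ± 0.20, with spot SDs of 0.10 on both arrays (n = 10 spots). A dimmer H2-K1 probe, at 28.4 and 20.6, differed by -0.30 ± 0.27. H2-D1 had signals of 34.6 and 32.7, a difference of 0.09 ± 0.23. Neither gene differed by more than its error at its brightest probe, and the sign of H2-K1 turned under 5 of 10 alternative settings, with values from -0.30 to 0.22.

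**Figure D2:**
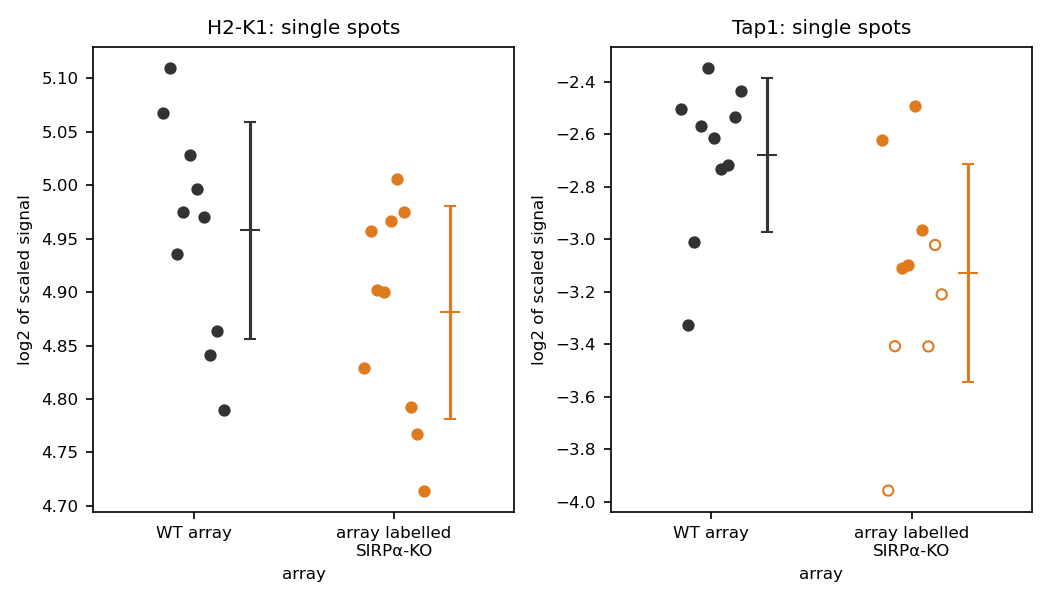
Single spots of the H2-K1 and Tap1 probes, as log2 of the scaled signal, on each array; bars give the mean ± SD over 10 spots, and open circles are spots not well above background. The H2-K1 spots of both arrays overlap (SD 0.10 each), and the Tap1 spots are lower on the array labelled SIRPα-KO on average but also overlap.

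Nonclassical class I genes, which are more tissue-restricted and less polymorphic, held the largest differences in both directions. These, for H2-M10.3 and H2-T24, did not recur at a dimmer second probe of the same gene. Of the 23 genes of the class, 18 were measured, the most of any class. Of the 18, 1 was at least 2-fold lower (5.56%, near the 5.50% of all genes) and none at least 2-fold higher (against 3.10%). The genes below 0 numbered 14 (77.8%, against 58.1% of all genes). The median of the class was -0.11. Of these 14, H2-K2, H2-Q2, H2-Q6, H2-Q8, H2-Q10 and H2-T23 differed by less than their errors, and each turned sign under at least 1 alternative setting.

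Among the H2-M genes, H2-M10.3 gave 769 for WT and 113 on the array labelled SIRPα-KO. The H2-M10 family is known for expression with V2R pheromone receptors in the vomeronasal organ. The difference was -2.60 ± 0.21, or 6.06-fold lower, at percentile 0.335 of all measured genes. It rests on 1 probe: a second H2-M10.3 probe was not well above background on either array, at 2.08 and 2.36. In the authors' deposited table the difference at the first probe was -2.46, and after normexp, a correction of the background signal, it was -1.98.

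H2-M11, the gene just beyond H2-M10.4 in the same cluster, had signals of 78.5 and 35.8, a difference of -0.96 ± 0.22, 1.95-fold lower and so just short of the 2-fold limit, which Tap2, at -1.16, just passed. H2-M11 was at -0.39 after normexp and at -1.13 without scaling. H2-M10.2, of the same cluster, was dim, with signals of 19.5 and 13.9 and a difference of -0.32 ± 0.31. H2-M10.1, H2-M10.4, H2-M10.6 and H2-M9 were not well above background on either array. H2-M1, which follows H2-M9, differed by -0.44 ± 0.21 (137 and 90.2), and H2-M5, elsewhere in the complex, by -0.17 ± 0.21. H2-M3, which presents N-formylated peptides of bacteria and mitochondria, lay the other way at 0.34 ± 0.20, with signals of 368 and 414.

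Of the 7 H2-Q genes, 6 were measured, and 5 of them lay below 0 (83.3%, against 58.1% of all genes). Of these 5, only H2-Q7 kept its sign under all 10 alternative settings. H2-Q4 was the exception, at 0.49 ± 0.20, with signals of 39326 and 49171. H2-Q7, which encodes the Qa-2 antigen, had signals of 189 and 107 and a difference of -0.66 ± 0.21. Its neighbour H2-Q6 was near 0 at -0.04 ± 0.29, with dim signals of 18.1 and 15.7. H2-Q8 (-0.10 ± 0.20), H2-Q10 (-0.04 ± 0.22) and H2-Q2 (-0.11 ± 0.21) differed by less than their errors. A dimmer H2-Q2 probe gave 0.66 ± 0.27, the opposite sign. Since H2-Q genes are near-identical copies, signal shared between their probes could not be told apart here, and single H2-Q values are uncertain. Probe sequences were not available for the other H2 genes either, H2-M10.3 included, so shared signal could not be examined for them.

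Of the H2-T genes, H2-T24 had the highest difference of all members, 0.79 ± 0.20, with signals of 171 and 262 and percentile 94.0 of all genes. A dimmer H2-T24 probe, at 13.3 and 11.5, differed by -0.04 ± 0.37. H2-T23, which encodes Qa-1, the ligand of the NKG2A receptor of NK cells, had signals of 39.0 and 33.5 and a difference of -0.05 ± 0.23. H2-T3 and H2-T10 passed background for WT only. Their limits were -0.49 ± 0.54 and -0.44 ± 0.44, neither beyond its error, and -0.17 and -0.06 after normexp. Cd1d1, which lies outside the MHC and presents lipids to NKT cells, was 1.54-fold higher at 0.62 ± 0.21, with signals of 59.8 and 81.8. After normexp it was at 0.32. A second Cd1d1 probe was not well above background on either array, at 5.85 and 4.31. H2-K2, a transcribed pseudogene, gave -0.02 ± 0.21 and, at a second probe, 0.01 ± 0.21.

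**Figure D3:**
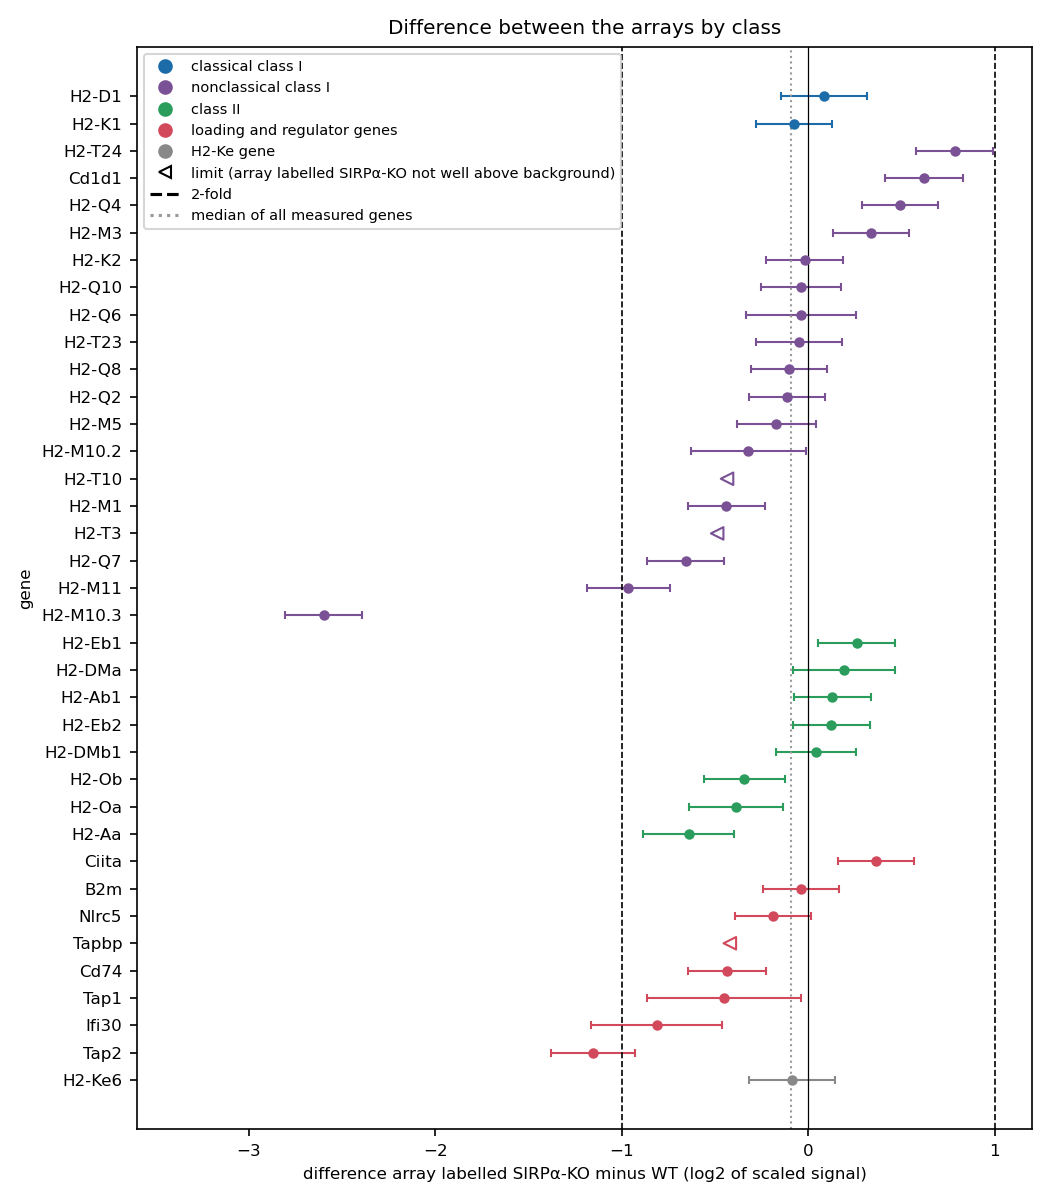
Difference between the arrays (log2 of scaled signal, array labelled SIRPα-KO minus WT) for each measured gene, grouped by class; bars are the signal error, open triangles are limits, and dashed lines mark 2-fold. Only H2-M10.3 (-2.60) and Tap2 (-1.16) lie beyond the lower line, and no gene lies beyond the upper.

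Class II genes were close to equal on both arrays, with the α chain gene H2-Aa as the lowest. Of 9 genes, 8 were measured. None was at least 2-fold lower, against 5.50% of all measured genes, or 2-fold higher, against 3.10%. With 8 genes, a count of 0 is near these shares. Of the 8, 5 lay above 0 and 3 below (37.5%, against 58.1% of all genes), and the median was 0.08, against -0.09 for all genes. Without scaling, H2-Ab1, H2-Eb2 and H2-DMb1 turned to the other side of 0. The β chain H2-Ab1 had signals of 1141 and 1111, a difference of 0.13 ± 0.20, and its second probe gave 0.12 ± 0.20. H2-Aa, which encodes the α chain that pairs with it and lies next to it in the genome, had signals of 47.2 and 26.9, a difference of -0.64 ± 0.24, or 1.56-fold lower. The chains of this molecule thus had values of opposite sign, and H2-Aa was read from 1 probe only. H2-Eb1 differed by 0.26 ± 0.21 (88.2 and 93.9) and H2-Eb2 by 0.12 ± 0.21.

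None of the 4 measured class II chaperone genes differed by more than 2 times its error, against 32.2% of all measured genes. H2-DMa and H2-DMb1, which form the peptide exchanger, differed by 0.19 ± 0.27 (20.3 and 20.7) and 0.04 ± 0.21 (63.4 and 58.1), each less than its error. H2-Oa and H2-Ob, which form the inhibitor of H2-DM, differed by -0.39 ± 0.25 (32.1 and 21.8) and -0.34 ± 0.22 (61.0 and 42.8), and by -0.10 and -0.16 after normexp. A dimmer H2-Ob probe gave -0.41 ± 0.33. H2-DMb2 was not well above background on either array.

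Loading and regulator genes had a median of -0.43, against -0.09 for all measured genes. Of 9 genes, 8 were measured, 7 of them lay below 0 (87.5%, against 58.1% of all genes), and 1, Tap2, was at least 2-fold lower (12.5%, against 5.50%). Of the 7, B2m and Nlrc5 turned sign under some settings. This median depends on the processing: it was -0.15 with the authors' deposited log2 values and -0.07 after normexp. Tap2, a subunit of the peptide transporter, had signals of 76.3 and 30.5 and a difference of -1.16 ± 0.23, or 2.23-fold lower, at percentile 4.43 of all genes. It was read from 1 probe, gave -1.16 in the authors' deposited table, and was -0.59, short of 2-fold, after normexp.

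Tap1, its partner, was dim but spotted 10 times. Its spots ranged from 9.998 to 19.7 with a median of 16.6 on the WT array, and from 5.74 to 15.9 with a median of 10.4 on the array labelled SIRPα-KO, where 5 of 10 were well above background. The difference was -0.45 ± 0.41, with spot SDs of 0.29 and 0.42, and 3 of 10 spots lay below the lowest WT spot. It was -0.11 with the authors' deposited log2 values and -0.07 after normexp. Tapbp, the tapasin gene, which bridges TAP and the class I heavy chain, passed background for WT only, with signals of 12.8 and 8.50. Its limit was -0.42 ± 0.43, not beyond its error, and -0.06 after normexp. B2m, the light chain of class I, was nearly equal, at 911 and 789 and a difference of -0.04 ± 0.20, and its sign turned under 5 of 10 alternative settings. Erap1, the peptide-trimming enzyme, was not well above background on either array.

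Among the class II loading genes, Cd74, the invariant chain, had signals of 112 and 73.7, a difference of -0.44 ± 0.21. Ifi30, the thiol reductase GILT of endosomes, had signals of 20.4 and 10.4, a difference of -0.81 ± 0.35, or 1.76-fold lower, but of -0.18 after normexp. The transactivators lay on opposite sides of 0. Ciita, the regulator of class II genes, had signals of 601 and 688 and a difference of 0.36 ± 0.20. Nlrc5, the regulator of class I genes, had signals of 534 and 418, a difference of -0.19 ± 0.20, and its second probe gave -0.22 ± 0.21. Ciita kept its sign under all 10 alternative settings, whereas Nlrc5 ranged from -0.36 to 0.03. H2-Ke6, the gene in the complex that encodes no MHC molecule, differed by -0.08 ± 0.23 and turned to 0.01 under 1 setting.

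The 7 members that matched the X box letters searched here, with a Y box core, did not share a direction. Members with an X box of other letters, or without a matched promoter, are not covered by this. The differences of the 7 ranged from -0.66 (H2-Q7) to 0.49 (H2-Q4) with a median of 0.04. None was at least 2-fold apart, against 5.50% of all measured genes lower and 3.10% higher. Of the 8 members with a second measured probe, both probes had the same sign in H2-K1, H2-Ab1, H2-Ob, H2-Q10 and Nlrc5 and opposite signs in H2-Q2, H2-T24 and H2-K2. The H2-K2 values were both within 0.02 of 0.

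**Figure D4:**
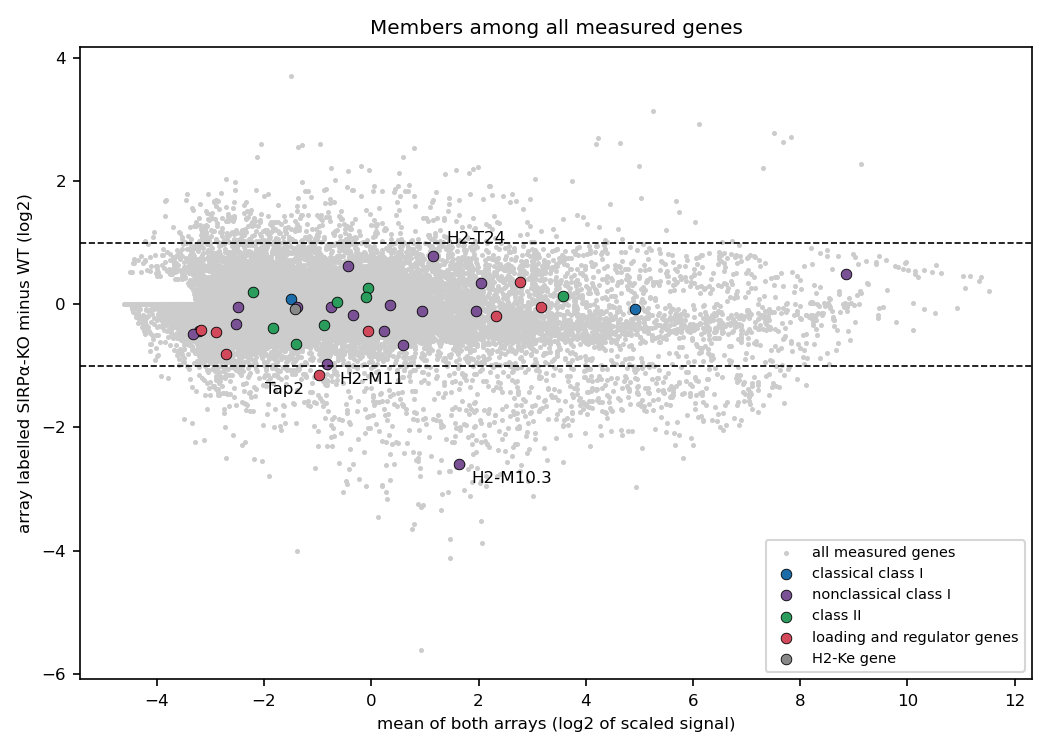
Difference between the arrays against the mean of both arrays (both log2 of scaled signal) for all 15828 measured genes in grey, with the members coloured by class; dashed lines mark 2-fold. H2-M10.3, at -2.60, is the lowest member, and the other 36 lie between -1.16 and 0.79.

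Other genes of the pathway were taken from a list of 32, of which 29 were measured. Of these, 2 were at least 2-fold lower (6.90%, against 5.50% of all measured genes), none was at least 2-fold higher (against 3.10%), and the median was -0.20. Psme1, a subunit of the proteasome activator PA28, had signals of 12142 and 4211 (means of 9 spots). Its difference was -1.36 ± 0.20, and -1.10 after normexp. Psme2, which encodes another PA28 subunit, lay the other way at 0.26 ± 0.20, with signals of 9214 and 9797. A dimmer Psme2 probe gave -0.24 ± 0.21. Psme2 is named after its values were seen. Irf1, a transcription factor of class I genes, had signals of 222 and 94.0, a difference of -1.07 ± 0.21, and its dimmer probe gave -0.22 ± 0.25. Irf1 fell short of 2-fold after normexp, at -0.73, and with the 75th percentile taken over detected probes, at -0.98. The immunoproteasome subunits Psmb9 (-0.10 ± 0.21) and Psmb10 (0.03 ± 0.20) differed by less than their errors, and Psmb8, whose gene lies between Tap1 and Tap2, was not well above background on either array. Ctss, the protease that degrades the invariant chain, had signals of 3204 and 1585. Its difference was -0.85 ± 0.20, and -0.55 with the authors' deposited log2 values. Rfx5, a subunit of the factor that binds the X box, differed by -0.31 ± 0.25.

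The labelled cell type was checked with its markers, and markers of other spleen cells, several of which carry MHC class II, were set beside the class II values. Of 10 red pulp macrophage markers, 9 were measured, with a median difference of -0.10. Adgre1, which encodes F4/80, gave 6830 and 10406 (a second, dimmer probe differed by -0.47 ± 0.20), Csf1r 6601 and 6697, Spic 53.6 on both arrays, and Vcam1 82.1 and 63.2, while Mertk was not well above background. Cd5l, at 31.5 and 76.8, was the only one at least 2-fold apart (1.45 ± 0.22), and Cd163 differed by -0.57 ± 0.24; both are named after their values were seen. The summed scaled signal of this list was 141 for WT and 198 for the array labelled SIRPα-KO, and 72.3 and 81.2 without its brightest gene, Adgre1. Such sums, here and below, weigh each gene by the brightness of its probe and do not measure the amount of a cell type.

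Of 10 B cell markers, 8 were measured on each array, with a median difference of 0.19; Ms4a1 differed by 0.43 ± 0.21 and Cd79a by -0.06 ± 0.23, and Blk and Ebf1 were not well above background. Their summed scaled signal was 22.9 for WT and 30.9 for the other array, but 9.35 and 9.07 without Cd22, the brightest. All 10 conventional dendritic cell markers were measured for WT and 8 for the other array, with a median of -0.20 and sums of 15.9 and 8.86, or 3.81 and 3.08 without Flt3. Flt3 differed by -1.07 ± 0.20, and a second, dimmer Flt3 probe, at 250 and 46.8, by -2.25 ± 0.21. Under some settings the brighter Flt3 probe fell short of 2-fold, among them normexp (-0.74) and the authors' deposited log2 values (-0.84). Itgax differed by 0.85 ± 0.34 and Zbtb46 by -0.17 ± 0.21. The 6 plasmacytoid dendritic cell markers had a median of -0.18 and sums of 817 and 1288, but 21.9 and 13.6 without Siglech, so the higher sum is that of 1 probe. Monocyte markers (4 of 6 measured) had a median of -0.27 and sums of 126 and 109, but 4.47 and 3.31 without Vcan. T cell markers (6 of 7) had a median of 0.00 and sums of 86.8 and 72.3, or 25.2 and 17.8 without Cd4. Markers of each of these cell types were above background on both arrays, and their part in the MHC values was not tested.

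**Figure D5:**
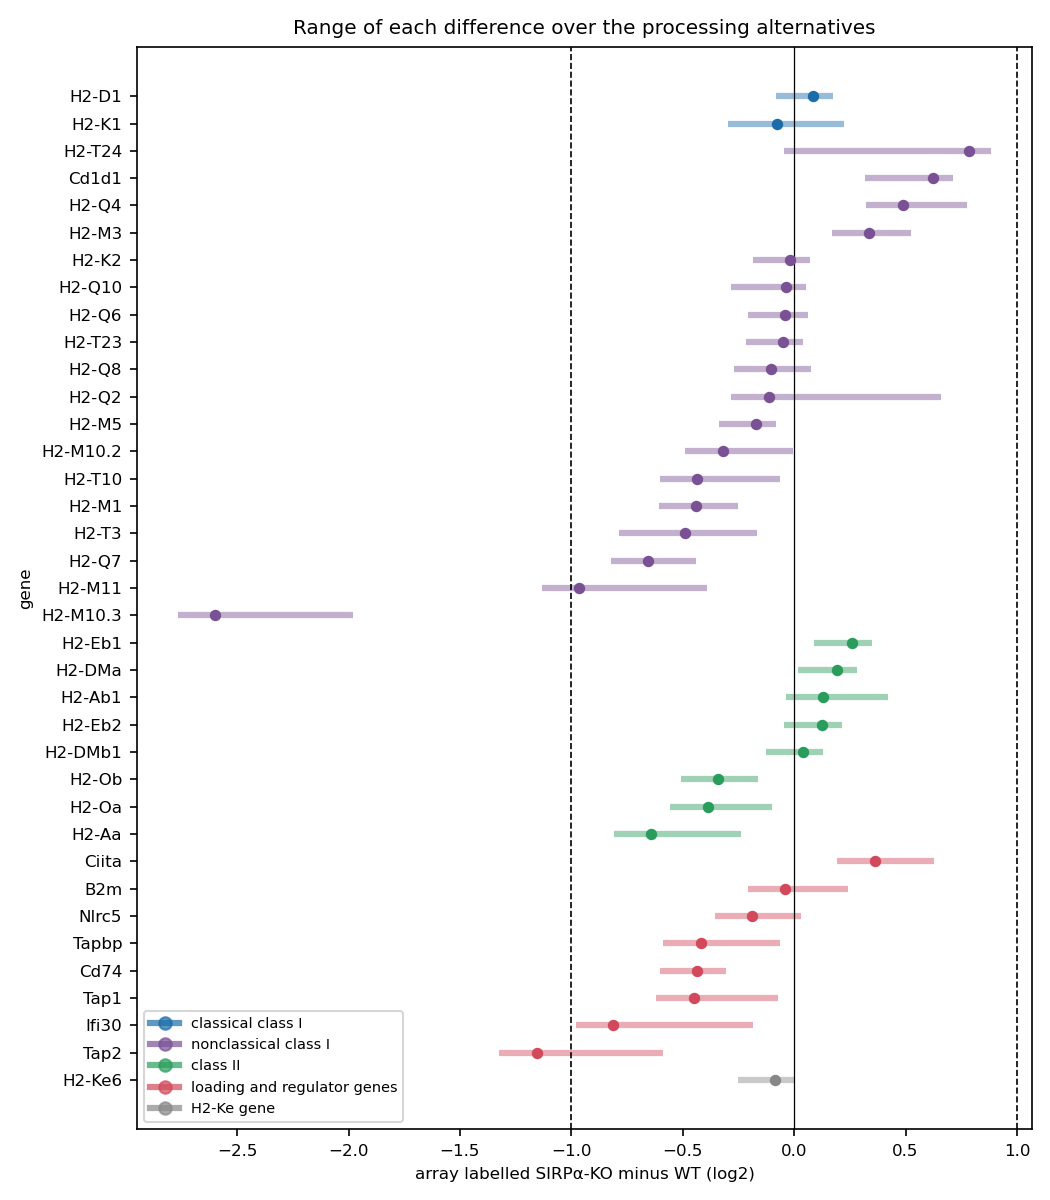
Difference of each measured gene with the main processing (points) and its range over the 10 alternative settings (bars), as log2, array labelled SIRPα-KO minus WT; dashed lines mark 2-fold. The bar of H2-M10.3 runs from -2.77 to -1.98, wholly beyond 2-fold, and that of Tap2 from -1.32 to -0.59.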

How the data were processed

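Both arrays were 1-colour (Cy3). The deposited scanner tables hold spot intensity on a linear scale, from Agilent Feature Extraction 11.0.1.1 on mouse design 26655 (build mm9), per the file headers; the processed signal is background subtracted and spatially detrended. A deposited table holds the authors' log2 values (column median 4.56 on each array), whose normalization no source used here states; they ordered probes as the scanner signal of the same array did, and served as an alternative.

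Non-control spots without an outlier flag on both arrays were kept (321 of 43020 left out; no spot was saturated). Spots of a probe were averaged as log2 values; a probe was well above background where at least 50% of its spots were. For a limit, the dim side was raised to the lowest value well above background on that array, unless it already exceeded it. Accessions were matched without version to RefSeq (GRCm38.p6, names and promoters only); 27206 of 39386 probes had a symbol. Members, lists and the naming rule (every member, Sirpa, pathway genes at least 2-fold apart and preset ones, and preset cell markers) were chosen with earlier results of these data known. Some genes of these lists are not reported here. The steps were tested on simulated data in which only brighter genes were changed. The simulation did not exercise the rule for limits. Python 3.11.15, R 4.3.3 and limma 3.58.1 were used.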

Additional observations from a re-analysis of the deposited data

How the results depend on the processing

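Normexp was run on median signals because the tables hold no mean signal, an alternative chosen after the data were seen; the planned form on mean signals was not run. The 2 members at least 2-fold lower became 1 after normexp, 6 at 1.5-fold, 1 at 3-fold, 3 without scaling and 3 where dim genes were kept, and the count at least 2-fold higher, 0, became 2 at 1.5-fold; the fold limits act by construction. The median of the loading and regulator genes, -0.43, was -0.15 with the authors' log2 values and -0.068 after normexp, and the cause was not tested. The other class medians moved by less than the median signal error of their members in all settings, but that of class II turned to -0.09 without scaling, and that of classical class I ranged from -0.16 to 0.16. Leaving out the scaling moved the median of all genes from -0.09 to -0.26. H2-M11 was at -1.13 without scaling and -0.39 after normexp. No paired analysis was possible because each group has 1 array; no value could be recomputed without a replicate. Dim probes, with signals near 10, limit Tap1, Tapbp, Ifi30, H2-T3 and H2-T10.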
